A study of Homo sapiens with 12 samples.

Results

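The genes described here are TXNIP, its alpha-arrestin paralogs ARRDC4 and ARRDC3, the transcription factors MLXIP and MLX, the glucose transporters SLC2A1, SLC2A3 and SLC2A10, and the hexokinase HK1. They are 9 of the 58174 genes in each deposited table, matched by symbol, and they were chosen on measured values of these same libraries: their levels in the 12 libraries and their differences between XRN2 siRNA and control siRNA. Their levels and differences are therefore given as a description, with standard errors and without a test. Tests are given for pathway genes that are not among the 9. All 9 genes passed the filter on low counts, among 14232 genes that did.

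The study measured polyadenylated RNA by sequencing in LN229 and U251, which are established glioblastoma cell lines, after reverse transfection and 72 h of growth. Each line had 3 groups of 2 libraries: mock transfection, a control siRNA, and an siRNA against XRN2, the nuclear exonuclease that degrades RNA from its 5′ end. LN229 was grown in 5% FBS in DMEM and U251 in 10% FBS in EMEM, both with penicillin and streptomycin, so the line and its medium cannot be told apart. The labels do not say that the 2 libraries of a group came from separate cultures, so the p-values measure the spread between these libraries, which may be technical.

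TXNIP encodes thioredoxin-interacting protein, an alpha-arrestin that binds thioredoxin and promotes the removal of the glucose transporters GLUT1 and GLUT4 from the cell surface. Its transcription, and that of ARRDC4, rises when glucose phosphates accumulate, through MondoA (the product of MLXIP) paired with MLX, which binds carbohydrate response elements. SLC2A1, SLC2A3 and SLC2A10 encode GLUT1, GLUT3 and GLUT10, and HK1 phosphorylates glucose once it is inside the cell.

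TXNIP and ARRDC4 are the textbook targets of MondoA and MLX in this group, and the letters upstream of their starts are shown for that reason. Promoter sequences came from RefSeq (build GRCh38.p14), in which 8 of the 9 genes had an entry, and the 250 bases before each annotated start were searched on both strands. The motifs were the carbohydrate response element, taken as 2 copies of CACGNG with 5 bases of any kind between them (N is any base), the E-box with the letters CACGTG, and the box with the letters CCAAT. An E-box can lie inside the carbohydrate response element, so those matches can overlap. The first sequence is chr1:145996580-145996829 (minus strand, before the TXNIP start) and the second is chr15:97960453-97960702 (plus strand, before the ARRDC4 start). Capitals mark every motif match, with a CCAAT box on the other strand read as its reverse complement.
TXNIP: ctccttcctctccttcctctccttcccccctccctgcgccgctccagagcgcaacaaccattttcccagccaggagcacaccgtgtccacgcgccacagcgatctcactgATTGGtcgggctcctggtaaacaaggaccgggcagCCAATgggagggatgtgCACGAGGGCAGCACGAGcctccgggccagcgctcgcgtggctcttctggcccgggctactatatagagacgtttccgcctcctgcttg
ARRDC4: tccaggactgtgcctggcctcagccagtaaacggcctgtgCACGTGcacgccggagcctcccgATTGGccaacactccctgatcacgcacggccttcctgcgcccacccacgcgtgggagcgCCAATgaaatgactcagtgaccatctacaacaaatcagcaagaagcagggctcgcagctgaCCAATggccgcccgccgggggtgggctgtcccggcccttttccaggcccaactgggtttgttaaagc
The TXNIP window held 1 match to the carbohydrate response element, whose first base lay 88 bases before this start, and 2 CCAAT boxes, 140 and 105 bases before it. Of 35116 promoter windows of this length, 16 (0.0456%) held a match to that pattern. Other forms of the element were not searched. The ARRDC4 window held no match to the searched pattern, 1 E-box 210 bases before the start and 3 CCAAT boxes. An E-box was present in 6.34% of all windows and a CCAAT box in 32.0%. MLX also had 1 E-box, 50 bases before its start. A second annotated TXNIP start, with the window chr1:145995745-145995994 before it, had no match to any of the motifs. A match describes letters only and is not evidence of binding.

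Depth ranged from 4846768 to 7469052 exon reads per library, and 3 reads corresponded to 0.402 to 0.619 counts per 1000000 reads (CPM). The CPM of the genes below are also scaled by edgeR's TMM factors, which offset differences in composition between libraries. XRN2 fell to 13.4% of the control siRNA level in LN229 and to 20.6% in U251, and its 4 siRNA libraries lay between 25.6 and 33.5 CPM, against 134 to 243 CPM in the other 8. The lines differed in glial markers in both directions. Over the mock and control siRNA libraries, edgeR called 3 of 8 tested markers higher in LN229 and 5 lower, against 67.0% of all genes called. GFAP, the astrocyte intermediate filament, was between 1.05 and 4.31 CPM in LN229 and between 2351 and 6903 CPM in U251. The microglial marker AIF1 and the red cell marker HBB had no read in any library. In 3 libraries many genes lay at least 2-fold from the median of the other 5 of the line: U251 mock replicate 2, with 311 genes lower and 373 higher, LN229 control siRNA replicate 1, with 582 and 120, and LN229 XRN2 siRNA replicate 2, with 425 and 345. In the other 9 libraries at most 119 genes were lower and 127 higher.

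TXNIP (chr1:145992435-145996600, minus strand) was almost lost from U251 mock replicate 2. The other U251 libraries had 174 CPM (mock replicate 1), 162 and 196 CPM (control siRNA) and 215 and 221 CPM (XRN2 siRNA), whereas mock replicate 2 had 7.10 CPM. That value rests on 44 exon reads, for which the exact 95% Poisson interval, covering counting error only, is 5.16 to 9.53 CPM. The same library had no TXNIP intron read, and the other U251 libraries had 6 to 14. In bulk RNA, fewer expressing cells and less RNA per cell cannot be told apart. Relative to the median of the other 5 U251 libraries, and with 0.5 CPM added to both, TXNIP was lower by a log2 ratio of -4.69, the second lowest of 14232 genes. The lowest was AC125611.3, named after its values were seen, which had no read there and 1.52 to 26.8 CPM in the other 5.

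The members ARRDC4 and ARRDC3 were low in the same library by smaller amounts than TXNIP. ARRDC4 (chr15:97960698-97973838, plus strand) had 21.6 CPM there against 69.1 to 87.1 CPM in the other U251 libraries, a log2 ratio of -1.75. ARRDC3 (chr5:91368724-91383359, minus strand), which recruits ubiquitin ligases to membrane receptors, had 64.4 CPM against 106 to 192 CPM, a log2 ratio of -1.05. HK1 (chr10:69269984-69401882, plus strand) had 343 CPM against 433 to 465 CPM. Of 4 other arrestins tested, 2 were below the other U251 libraries and 2 within their range, with a median log2 ratio of -0.08. The 2 within were the paralogs ARRDC1, at 31.2 CPM against 26.9 to 37.7 CPM, and ARRDC2, named after its values were seen.

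The factors and transporters differed less. MLXIP, at 80.4 CPM, and SLC2A3, at 30.5 CPM, were also the lowest of the U251 libraries, whose next values were 82.0 and 31.1 CPM. MLX, at 104 CPM, and SLC2A1, at 447 CPM, were the highest, just above 94.0 and 446 CPM. SLC2A10, at 20.2 CPM, lay within the range. In all, 6 of the 9 genes were below and 2 above every other U251 library, and across all genes 57.2% lay outside that range in this library, so a count of 8 is set against a high background.

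**Figure D1:**
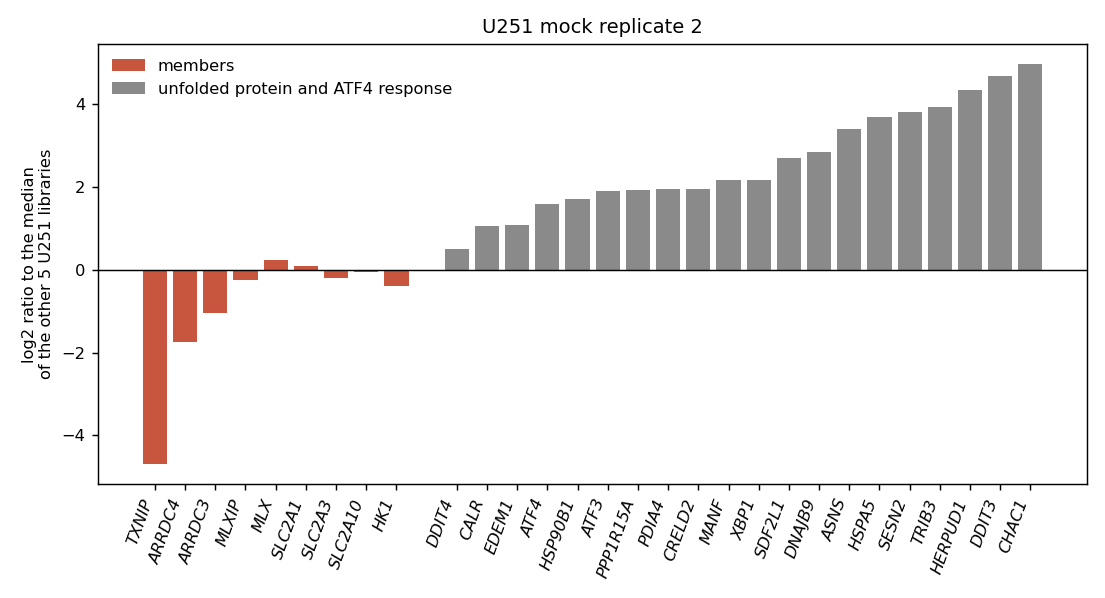
Log2 ratio (vertical axis) of U251 mock replicate 2 to the median of the other 5 U251 libraries, with 0.5 CPM added to both, for the 9 members (red bars) and 20 genes of the unfolded protein and ATF4 responses (grey bars). TXNIP, ARRDC4 and ARRDC3 lie lowest, at -4.69, -1.75 and -1.05, and all 20 grey bars lie above 0.

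Genes of the unfolded protein and ATF4 responses were high in that library. All 20 genes of the list were above every other U251 library, with a median log2 ratio of 2.16, against -0.03 over all genes. Of all 14232 genes, 3629 were above and 4510 below every other U251 library. HSPA5, the main chaperone of the endoplasmic reticulum, had 19522 CPM against 1474 to 1637 CPM. CALR had 4606 against 2088 to 2366 CPM, HSP90B1 5212 against 1400 to 1696 CPM, and PDIA4, a disulfide isomerase, 4818 against 1191 to 1326 CPM. The summed level of the list was 39973 CPM in this library and 7375 to 8131 CPM in the other 5, and the part of that response in the TXNIP level was not tested. The glial markers summed to 9747 CPM there against 15593 to 17986 CPM, with 7 of 8 tested markers below the other libraries. The 6 neuronal markers, of which STMN2 had no read in any library, summed to 59.2 CPM against 16.7 to 18.8 CPM. Of these, SYT1 had 55.7 against 8.45 to 11.5 CPM, while the other tested markers, SNAP25 and GAD1, were below the other U251 libraries. The part of either in the result was not tested.

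Among the other genes of glucose handling, 13 of 16 genes of glucose phosphorylation and first use were below the other 5 U251 libraries. Their median log2 ratio was -0.25. The counts in this paragraph stand against 4510 of all 14232 genes below and 3629 above. For GPI, the isomerase of the second glycolytic step, the library had 630 CPM against 816 to 886 CPM. For PFKP, a phosphofructokinase, it had 379 against 456 to 550 CPM. SLC2A12, which encodes GLUT12, had 42.3 against 90.5 to 105 CPM. The thioredoxin system, which includes the thioredoxin that TXNIP binds, showed no such shift. Of its 20 genes, 7 were below, 2 above and 11 within the range, with a median log2 ratio of -0.03. In the MYC, MAX and MLX network, 5 of 9 were below and 3 above. The latter included MYC, named after its values were seen, at 145 CPM against 37.3 to 43.2 CPM.

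LN229 had no such library for TXNIP, whose values were 44.3 and 44.7 CPM in mock, 45.4 and 45.3 CPM in control siRNA and 58.6 and 76.1 CPM in XRN2 siRNA. Both XRN2 siRNA libraries were above the 4 others, which lay close together. In U251 the XRN2 siRNA libraries, at 215 and 221 CPM, were also above both control siRNA libraries. The log2 difference was 0.57 (SE 1.02) in LN229 and 0.28 (SE 0.95) in U251. Those errors come from a spread estimated over all 12 libraries. Without U251 mock replicate 2, which enters neither difference, the values were 0.56 (SE 0.16) and 0.28 (SE 0.14).

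**Figure D2:**
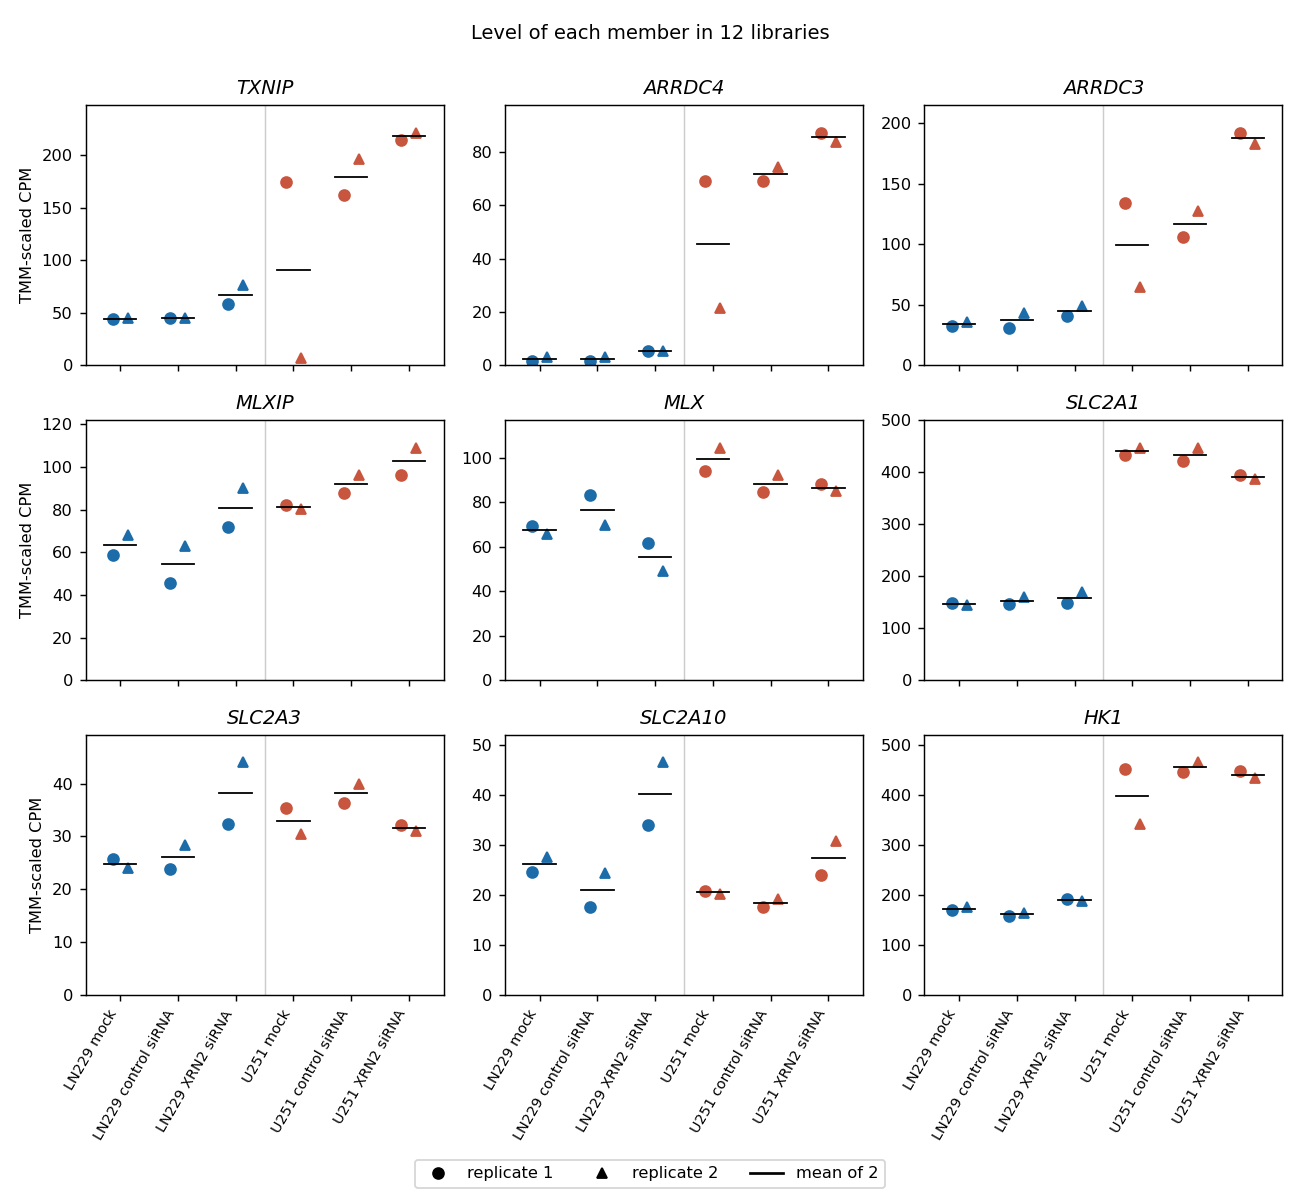
TMM-scaled CPM (vertical axes, from 0) of each member in the 12 libraries, by group (horizontal axis): LN229 in blue, U251 in red, circles for replicate 1, triangles for replicate 2 and a line for their mean. The TXNIP, ARRDC4 and ARRDC3 panels show the low value of U251 mock replicate 2, and SLC2A1 and HK1 separate the lines in every group.

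ARRDC4 followed the same order in both lines. In LN229 it had 1.76 and 3.17 CPM in mock, 1.61 and 3.20 CPM in control siRNA and 5.29 and 5.44 CPM in XRN2 siRNA. These are low counts, of at least 8 exon reads per library. In U251 it had 69.1 and 74.2 CPM in control siRNA and 87.1 and 83.7 CPM in XRN2 siRNA. The log2 differences were 1.11 (SE 0.73) in LN229 and 0.25 (SE 0.39) in U251, or 1.11 (SE 0.32) and 0.25 (SE 0.16) without U251 mock replicate 2.

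ARRDC3 was higher in both U251 libraries with XRN2 siRNA. It had 106 and 128 CPM in U251 control siRNA and 192 and 183 CPM in XRN2 siRNA, with no overlap. In LN229 the values were 31.3 and 43.3 CPM in control siRNA and 40.8 and 49.1 CPM in XRN2 siRNA, which overlap. The log2 differences were 0.68 (SE 0.27) in U251 and 0.26 (SE 0.29) in LN229. They differed by -0.42 (SE 0.39), LN229 minus U251. ARRDC3 overlaps the antisense gene ARRDC3-AS1 over 3011 bases. The kit keeps no strand, so reads from the overlap cannot be assigned, but ARRDC3-AS1 had only 2 to 12 reads per library.

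MLXIP (chr12:122078722-122147347, plus strand) and MLX (chr17:42567068-42573239, plus strand) lay on opposite sides of 0 in LN229, with MLXIP higher and MLX lower with XRN2 siRNA. MLXIP had 45.8 and 62.8 CPM in control siRNA and 71.8 and 90.1 CPM in XRN2 siRNA, a log2 difference of 0.57 (SE 0.17). MLX had 83.3 and 69.6 CPM in control siRNA and 61.5 and 48.9 CPM in XRN2 siRNA, a log2 difference of -0.47 (SE 0.15). Neither pair of groups overlapped. In U251 both overlapped, with MLXIP at 87.6 and 96.2 against 96.1 and 109 CPM and MLX at 84.5 and 91.9 against 88.0 and 85.1 CPM. Their log2 differences were 0.16 (SE 0.17) and -0.03 (SE 0.15). MLX shares 925 bases with PSMC3IP on the other strand, which had 60 to 201 reads per library, and 80.1% to 88.3% of MLX exon reads were uniquely mapped, so its level is uncertain.

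Among the transporters, SLC2A10 (chr20:46709487-46736347, plus strand) was higher with XRN2 siRNA in both lines. It had 17.5 and 24.4 CPM in LN229 control siRNA and 33.9 and 46.5 CPM in XRN2 siRNA. The U251 values were 17.7 and 19.2 CPM and 23.9 and 30.7 CPM. Its log2 differences were 0.92 (SE 0.21) and 0.57 (SE 0.21), and the groups did not overlap in either line.

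SLC2A3 (chr12:7919230-7936275, minus strand), the transporter of high glucose affinity found in neurons, was higher with XRN2 siRNA in LN229 and lower in U251, in every library. The LN229 values were 23.8 and 28.3 CPM in control siRNA and 32.3 and 44.0 CPM in XRN2 siRNA. The U251 values were 36.3 and 40.0 CPM and 32.1 and 31.1 CPM. The log2 differences were 0.54 (SE 0.18) and -0.27 (SE 0.17), or 0.81 (SE 0.25) apart. Across all 14232 genes, edgeR called none (0.0%) for a difference between the lines in the response to XRN2 siRNA. For that difference 945 genes had an unadjusted p below 0.05, DESeq2 called 15, and edgeR called 1115 without LN229 control siRNA replicate 2. The near-copy SLC2A14 had at most 0.892 CPM, and 96.8% to 100% of SLC2A3 exon reads were uniquely mapped.

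SLC2A1 (chr1:42925375-42959173, minus strand), the transporter of basal glucose uptake, differed little with XRN2 siRNA. It had 146 and 160 CPM in LN229 control siRNA and 148 and 169 CPM in XRN2 siRNA. In U251 it had 420 and 446 CPM and then 395 and 386 CPM. The log2 differences were 0.05 (SE 0.13) and -0.15 (SE 0.13). SLC2A1 shares 125 bases with SLC2A1-AS1, which had 0 to 14 reads per library.

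HK1 had 159 and 164 CPM in LN229 control siRNA and 192 and 187 CPM in XRN2 siRNA, with a log2 difference of 0.23 (SE 0.15). In U251 the control siRNA values, 446 and 465 CPM, overlapped the XRN2 siRNA values, 448 and 433 CPM, with a log2 difference of -0.05 (SE 0.14). The LN229 groups did not overlap.

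With XRN2 siRNA in LN229, 8 of the 9 genes were above 0 and 1 below, with a median log2 difference of 0.54, against 0.00 over all 14232 genes. Of these genes, 1 (SLC2A10) was among the 450 called by edgeR's quasi-likelihood test, 3.16% of genes tested, and it was not called in 9 of 19 alternatives, LN229 libraries alone included. Of all genes, 172 of the 450 were higher and 278 lower (277 and 197 of 474 without TMM factors). The 2 groups did not overlap for 7 of the 9 genes, and 46.9% of all genes showed the same. In U251, 5 were above 0 and 4 below, with a median of 0.16, and the groups did not overlap for 6 of the 9, against 45.4% of all genes. None of the 9 was called in U251, where XRN2 was the 1 gene called (0.00703% of those tested). Because the genes were chosen on these differences, nothing is read from these counts.

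The LN229 differences rest partly on control siRNA replicate 1. Without it, the log2 difference was 0.77 (SE 1.01) for ARRDC4, 0.08 (SE 0.37) for ARRDC3, 0.39 (SE 0.17) for MLXIP, -0.30 (SE 0.15) for MLX, 0.45 (SE 0.20) for SLC2A3 and 0.74 (SE 0.22) for SLC2A10. TXNIP, SLC2A1 and HK1 were at 0.60 (SE 1.43), 0.02 (SE 0.12) and 0.24 (SE 0.14). All 9 kept their sign. Without XRN2 siRNA replicate 2, which had the highest value of 7 members, 8 kept theirs and SLC2A1 went to -0.05 (SE 0.15). TXNIP was then at 0.37 (SE 1.27), ARRDC3 at 0.13 (SE 0.36), MLX at -0.31 (SE 0.17), SLC2A3 at 0.31 (SE 0.18) and SLC2A10 at 0.69 (SE 0.23).

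Mock libraries can stand in for the control siRNA, and this comparison shares its XRN2 siRNA libraries with the one above. In U251 the log2 difference of XRN2 siRNA from mock was 1.28 (SE 0.98) for TXNIP, 0.92 (SE 0.40) for ARRDC4 and 0.92 (SE 0.27) for ARRDC3. Without mock replicate 2 these were 0.32 (SE 0.18), 0.30 (SE 0.20) and 0.48 (SE 0.20). In LN229 the values against mock were 0.60 (SE 1.01) for TXNIP, 1.08 (SE 0.69) for ARRDC4 and 0.39 (SE 0.28) for ARRDC3. MLXIP was at 0.35 (SE 0.17) in LN229 and 0.34 (SE 0.17) in U251, and MLX at -0.29 (SE 0.15) and -0.20 (SE 0.15). For neither factor did the XRN2 siRNA and mock libraries overlap in either line, unlike the comparison with control siRNA in U251. Without U251 mock replicate 2 the U251 values were 0.32 (SE 0.21) and -0.12 (SE 0.18). SLC2A10 was at 0.61 (SE 0.20) in LN229 and 0.41 (SE 0.21) in U251. SLC2A3 was at 0.61 (SE 0.17) in LN229 and -0.06 (SE 0.17) in U251, where its XRN2 siRNA and mock libraries overlapped.

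**Figure D3:**
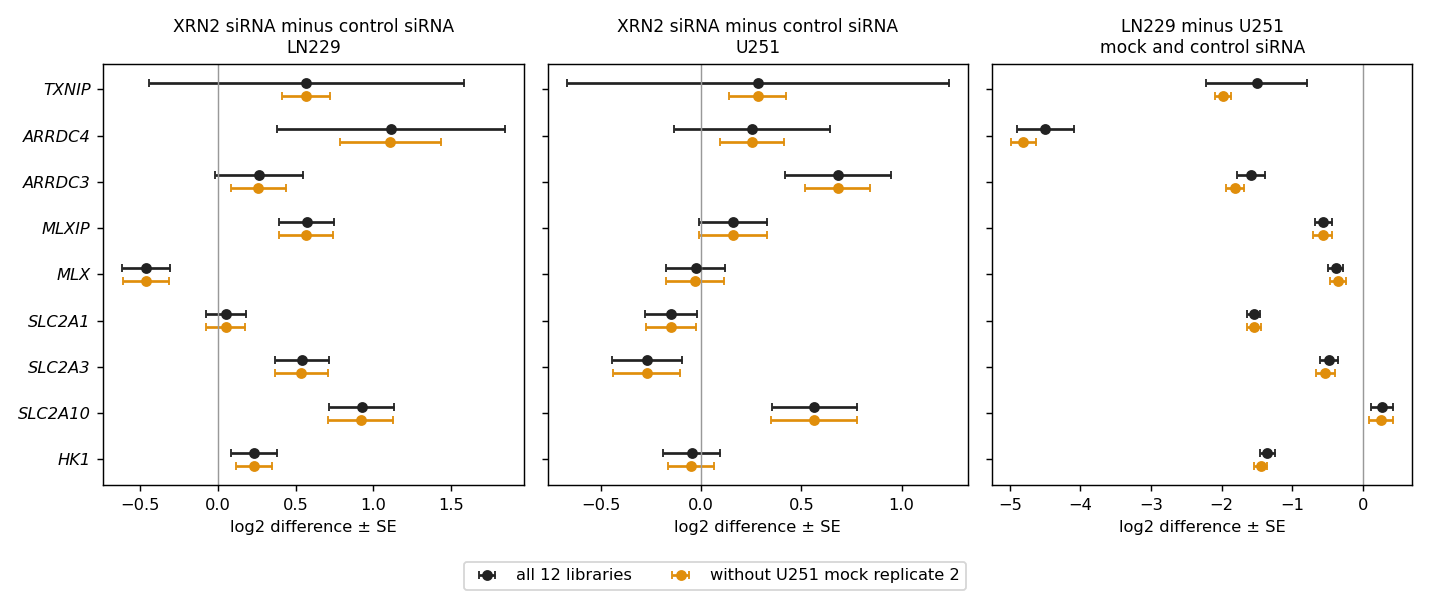
Log2 difference with its SE (horizontal axes) for each member (rows) in 3 comparisons, from all 12 libraries (black) and without U251 mock replicate 2 (orange). The TXNIP error bar with XRN2 siRNA in LN229 narrows from 1.02 to 0.16 without that library, and the right panel shows SLC2A10 as the 1 member above 0 in LN229 against U251.

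LN229 had lower levels of most of these genes than U251. Over the mock and control siRNA libraries, 8 of the 9 were lower in LN229, with a median log2 difference of -1.35, against 0.03 over all genes. Of the 9, 7 were among the genes called by edgeR, but so were 67.0% of all genes, and nothing is read from that count. SLC2A1 was lower by a log2 difference of -1.55 (SE 0.09), with 144 to 160 CPM in LN229 and 420 to 447 CPM in U251. HK1 was lower by -1.35 (SE 0.10), with 159 to 176 CPM against 343 to 465 CPM. For both genes the 4 LN229 libraries lay well below the 4 of U251.

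The arrestins also differed. ARRDC4 was lower in LN229 by a log2 difference of -4.50 (SE 0.40), a 22.6-fold difference, and ARRDC3 by -1.59 (SE 0.20), and neither overlapped between the lines. For TXNIP the log2 difference was -1.50 (SE 0.72), and its libraries overlapped through U251 mock replicate 2. The value was -1.98 (SE 0.12) without that library and 0.33 without U251 mock replicate 1, where the low library is the only U251 mock library left.

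The factors and the other transporters differed by less. MLXIP was lower in LN229 by -0.56 (SE 0.12), SLC2A3 by -0.47 (SE 0.12) and MLX by -0.38 (SE 0.11). The libraries of these 3 genes did not overlap between the lines. SLC2A10 was the 1 member with a positive value, 0.27 (SE 0.15), and its libraries overlapped. TMM scaling matters for this comparison: without it the median of all genes moved from 0.03 to 0.20, MLX went to -0.22 and SLC2A10 to 0.44. Without it the genes called were 6028 higher and 3733 lower in LN229, compared with 4970 and 4563.

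Per kilobase of exon, SLC2A1 was the most abundant of the 9 genes in both lines, with a mean of 32.9 ± 2.13 CPM per kilobase (SD, n = 6 libraries) in LN229 and 89.7 ± 5.44 (SD, n = 5) in U251 without mock replicate 2. HK1 came next, at 28.7 ± 2.15 CPM per kilobase in LN229 and 74.0 ± 1.89 in U251, and its range overlapped that of SLC2A1 in LN229. TXNIP followed MLX in LN229, at 14.5 ± 3.54 CPM per kilobase against 15.6 ± 2.64, with overlapping ranges, and followed HK1 in U251, at 53.5 ± 7.0, apart from its neighbours in the order.

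The lower part of the order differed between the lines. In LN229, ARRDC3, SLC2A10, SLC2A3 and MLXIP each overlapped the next, from 7.87 ± 1.39 down to 4.76 ± 1.06 CPM per kilobase, and ARRDC4 was last and apart at 0.838 ± 0.406. In U251, ARRDC3, MLX and ARRDC4 each overlapped the next, from 30.1 ± 7.54 down to 18.8 ± 2.05, and MLXIP, SLC2A3 and SLC2A10 followed, each overlapping the next, from 6.77 ± 0.739 down to 4.49 ± 1.03. ARRDC4 thus lay between MLX and MLXIP in U251 and below all other members in LN229.

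**Figure D4:**
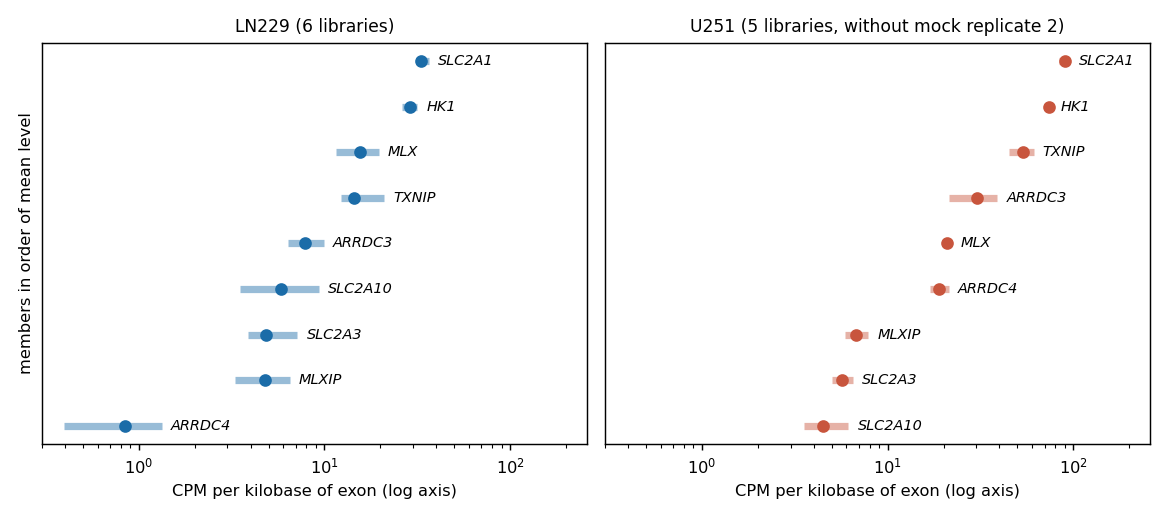
Level per kilobase of exon (horizontal log axis) of the 9 members in order of their mean (rows), with points for means and bars from the lowest to the highest library, in 6 LN229 libraries (left) and 5 U251 libraries without mock replicate 2 (right). SLC2A1 and HK1 lead in both lines, and ARRDC4 is last in LN229, at 0.838, and below MLX in U251, at 18.8 CPM per kilobase.

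Control siRNA differed little from mock transfection in LN229 for these genes. No gene of 14232 (0.0%) was called by edgeR's quasi-likelihood test, although 647 reached an unadjusted p below 0.05, and DESeq2 gave 1 call. The log2 differences of the 9 ran from -0.31 (SE 0.21) for SLC2A10 to 0.18 (SE 0.15) for MLX. In U251 the test also called none (0.0%), with 682 at an unadjusted p below 0.05 and 0 calls from DESeq2. There the TXNIP difference was 0.99 (SE 0.98), and 0.04 (SE 0.18) without mock replicate 2. ARRDC4 went from 0.67 to 0.05 and ARRDC3 from 0.24 to -0.20 without that library.

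The genes most like TXNIP were those with the highest Pearson correlation of log2 CPM over the 12 libraries, centred within each line, among 11588 genes. They were the mitochondrial gene MT-ND6 (0.98), the oxygen sensor EGLN1 (0.98), RHOB (0.97), the heat shock gene HSPA1B (0.97), which has a near-identical copy in HSPA1A, and TLE3 (0.96). All 5 were lowest of the U251 libraries in mock replicate 2, for example RHOB at 82.0 CPM against 187 to 220 CPM. Without that library their correlations were 0.26 to 0.52.

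Among the members, HK1 (0.87), ARRDC3 (0.84) and ARRDC4 (0.82) correlated most with TXNIP over the 12 libraries. Without U251 mock replicate 2 the highest were SLC2A10 (0.86, from 0.25), MLXIP (0.81, from 0.39) and ARRDC4 (0.77), and MLX was the most negative (-0.76, from -0.47). The libraries share sequencing depth and the treatment, so these values are descriptions.

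With XRN2 siRNA in LN229, edgeR with adjustment over all genes called 4 of 97 genes in 8 pathway lists (4.12%), close to the 3.16% of all genes. Of the 97, 28.9% had an unadjusted p below 0.05, against 22.2% of all genes. By list, none of 4 tested arrestins, 6 other hexose transporters, 16 genes of glucose phosphorylation, 16 alpha-arrestin partners or 15 AMPK and mTOR complex 1 genes was called. Of these 57 genes, 14 had an unadjusted p below 0.05, and DESeq2 called 5. Their median log2 differences lay between -0.08 and 0.16. Values in LN229 were -0.22 (SE 0.18) for ARRB2 and 0.05 (SE 0.18) for ARRDC1, and 0.56 (SE 0.18) for SLC50A1, a sugar efflux transporter. They were 0.21 (SE 0.17) for GPI, -0.36 (SE 0.16) for PFKP and 0.08 (SE 0.14) for VPS35, the retromer subunit that recycles transporters. They were 0.64 (SE 0.20) for TBC1D5, -0.57 (SE 0.16) for RHEB and 0.52 (SE 0.23) for MTOR. SLC2A12 is left without a value because it had under 2 CPM in each LN229 library.

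In the thioredoxin system, edgeR called 2 of 20 genes lower and none higher in LN229, relative to control siRNA. PRDX6, a peroxiredoxin, had 298 and 228 CPM in control siRNA and 168 and 149 CPM in XRN2 siRNA, a log2 difference of -0.73 (SE 0.15, edgeR adjusted p = 0.0259). PRDX4, the peroxiredoxin of the endoplasmic reticulum, had 106 and 68.2 CPM and then 54.7 and 43.5 CPM, a difference of -0.82 (SE 0.19, edgeR adjusted p = 0.0421). TXN, the thioredoxin that TXNIP binds, had a difference of -0.19 (SE 0.18). Control siRNA was itself above mock in LN229 for 18 of the 20 genes, with a median log2 difference of 0.26. Relative to mock, PRDX6 was at -0.44 (SE 0.15, edgeR adjusted p = 0.165) with XRN2 siRNA. PRDX4 was at -0.58 (SE 0.19, edgeR adjusted p = 0.153), so neither was called against mock. In the MYC, MAX and MLX network, 1 of 9 tested genes fell: MXD3, a MAX partner, with a difference of -0.97 (SE 0.21, edgeR adjusted p = 0.0325). Relative to mock, MXD3 was at -0.53 (SE 0.21, edgeR adjusted p = 0.231). Of 12 other glucose-responsive and lipogenic genes, 1 rose: RGS16, a regulator of G protein signalling.

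RGS16 had 23.0 and 21.2 CPM in LN229 control siRNA and 49.7 and 51.2 CPM in XRN2 siRNA, a log2 difference of 1.19 (SE 0.21, edgeR adjusted p = 0.0188). The 4 calls depended on which libraries entered the fit. RGS16 was called in 16 of 19 alternatives, PRDX6 and MXD3 in 10 and PRDX4 in 9. All 4 were lost with LN229 libraries alone, without LN229 XRN2 siRNA replicate 2 and without LN229 control siRNA replicate 1. PRDX6, PRDX4 and MXD3 were also lost without either LN229 mock library or any U251 library of the siRNA groups, none of which enters the comparison. Without LN229 control siRNA replicate 1 the differences were -0.49 (SE 0.12) for PRDX6, -0.44 (SE 0.15) for PRDX4, -0.71 (SE 0.22) for MXD3 and 1.28 (SE 0.26) for RGS16. Without LN229 XRN2 siRNA replicate 2 they were -0.64 (SE 0.19), -0.66 (SE 0.24), -0.82 (SE 0.26) and 1.17 (SE 0.27). The stress genes summed to 3883 to 4645 CPM with XRN2 siRNA and 5615 to 6507 CPM with control siRNA in LN229. The LN229 mock libraries lay between these, at 5005 to 5549 CPM. Between XRN2 siRNA and control siRNA none of 20 was called (1 at an unadjusted p below 0.05, 0 by DESeq2). The part of the stress genes in these results was not tested. In U251 edgeR called none of the 117 genes of these lists, with 1 at an unadjusted p below 0.05 and 0 by DESeq2. Values there were -0.12 (SE 0.15) for PRDX6, -0.11 (SE 0.18) for PRDX4 and -0.25 (SE 0.22) for MXD3.

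Between the lines, many of the same pathway genes differed, at the high background given above. For glucose phosphorylation and first use, 10 of 16 genes were lower in LN229 and 3 higher, with a median log2 difference of -1.04, against 0.03 over all genes. By edgeR, PGM2 was lower by -1.96 (SE 0.11, adjusted p = 3.22e-09), GPI by -1.86 (SE 0.12, adjusted p = 1.76e-08) and PFKP by -1.71 (SE 0.12, adjusted p = 2.89e-08). TIGAR, which lowers fructose bisphosphate, was higher by 2.16 (SE 0.12, edgeR adjusted p = 4.8e-09).

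The other hexose transporters split, with 3 of 6 higher and 3 lower. SLC2A12 had 90.5 to 103 CPM in U251 control siRNA and mock replicate 1, and 1.68 CPM or less in LN229. SLC2A6 was lower in LN229 by -1.95 (SE 0.17), SLC2A13, a myo-inositol transporter, was higher by 3.84 (SE 0.25), and SLC50A1 was higher by 1.18 (SE 0.14). Of 14 genes in that list, SLC2A2, SLC2A7 and SLC5A1 had no read in any library.

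Among the arrestins, ARRB1 was higher in LN229 by a log2 difference of 3.29 (SE 0.29), and ARRB2 and ARRDC1 were lower by -0.69 (SE 0.13) and -0.31 (SE 0.12). In the thioredoxin system 8 of 20 genes were higher and 8 lower. Its smallest p-values were for NXN, at -3.93 (SE 0.14), PRDX4, at -1.60 (SE 0.14), the mitochondrial thioredoxin TXN2, at 1.27 (SE 0.11), and PRDX2, at -1.43 (SE 0.14).

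In the MYC, MAX and MLX network 3 of 9 genes were higher in LN229 and 4 lower. MYCN had 2.36 to 5.28 CPM in the LN229 mock and control siRNA libraries and at most 0.18 CPM in those of U251. MNT was lower by -0.95 (SE 0.14), MXD4 by -0.61 (SE 0.13), and MXD3 was higher by 0.74 (SE 0.15). Of the glucose-responsive genes 3 of 12 were higher and 7 lower, with RGS16 at 5.18 (SE 0.27), KLF11 at 1.87 (SE 0.18), the fatty acid synthase gene FASN at 1.53 (SE 0.12) and BHLHE40 at -0.77 (SE 0.11).

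Of the alpha-arrestin partners, 6 of 16 genes were higher and 4 lower in LN229. VPS35 was lower by -1.58 (SE 0.10) and VPS26A, another retromer subunit, by -0.71 (SE 0.10), whereas the ubiquitin ligase NEDD4L was higher by 1.23 (SE 0.11). HECW2 had 7.87 to 17.0 CPM in LN229 and at most 0.19 CPM in U251. Of the AMPK and mTOR complex 1 genes 4 of 15 were higher and 4 lower. PRKAG2 was lower by -1.14 (SE 0.11) and RHEB by -1.07 (SE 0.11), and RPTOR and PRKAG1 were higher by 1.11 (SE 0.11) and 0.90 (SE 0.10).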

How the data were processed

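RNA from 12 libraries (6 groups of 2) was prepared with the Illumina TruSeq RNA LT v2 kit, per the labels' protocols. That kit selects polyadenylated RNA and keeps no strand. The deposited tables give, per gene, exon, unique, intron and total read counts, with the RPKM and TPM the authors computed, per the file headers. TPM and RPKM entered no test. For the aligner and the counter, the answer is not given in the sources used here. The submitters' processing notes name GRCh37 (hg19), whereas 96.8% of genes shared with GENCODE 29 carried its coordinates (7 of the 9 members), so positions are printed as in the tables and read as GRCh38.

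Exon counts were filtered (filterByExpr, minimum count 10, minimum total 15), scaled by TMM and fitted over all 6 groups with edgeR 4.0.16 (R 4.3.3), by quasi-likelihood with Benjamini-Hochberg adjustment. DESeq2 1.42.0 was an alternative, as were other scalings, filters, controls, unique reads, a replicate block and leaving out each library. The fit was tested on simulated data. No 2 replicates agreed within sampling noise. Members and lists were chosen with earlier results of these data known. Members' fitted differences are printed without p-values for that reason. Named genes were the 9 members, XRN2, the called genes of each list (the 4 of smallest p where more than 4, the 2 of highest mean CPM where none), the 4 most abundant stress genes and the 5 genes most like TXNIP.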

Additional observations from a re-analysis of the deposited data

Results flagged for a closer look

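SLC2A3 was the 1 member whose libraries moved in opposite directions in the 2 lines relative to control siRNA. Both XRN2 siRNA libraries were above both control siRNA libraries in LN229 and below them in U251. Relative to mock, the LN229 log2 difference was 0.61 (SE 0.17). The U251 difference from mock was -0.06 (SE 0.17), with overlapping libraries, and -0.16 without mock replicate 2. The log2 difference from control siRNA was 0.81 larger in LN229 than in U251. No p-value is given for that difference, because the gene was among those chosen on these values, and across all 14232 genes edgeR called none for it (945 at an unadjusted p below 0.05, 15 called by DESeq2).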

How the results depend on the processing

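Counts of called genes depended on the settings. For XRN2 siRNA against control siRNA in LN229 (450 genes), there were 183 with mock as the control, 1550 without a filter, 1 from the LN229 libraries alone and 773 by DESeq2. Leaving out 1 library gave 1 (without LN229 XRN2 siRNA replicate 2) to 3296 (without control siRNA replicate 2), with 68 without control siRNA replicate 1. In U251 (1 gene) the counts were 7, 69, 7 and 9 under the same settings, 4 from unique reads, and 1 to 8 with 1 library left out. For control siRNA against mock (0 genes), LN229 gave 70 without a filter, 1 by DESeq2 and 0 to 1913 with 1 library left out (without control siRNA replicate 2 for the highest). U251 gave 247 without a filter and 0 to 475 with 1 library left out (without mock replicate 1 for the highest). The cause was not tested.

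The comparison of the lines (9533 genes) stayed within 1.5 times under every setting run. The replicate numbers showed no shared shift. Deviations of replicate 1 from its group mean correlated between the groups of a line at -0.004 to 0.066 in LN229 and -0.038 to 0.004 in U251. Whether same-numbered libraries were prepared together cannot be read from these values. With a replicate block the counts were 573, 1, 8207, 0 and 1 for XRN2 siRNA in LN229, in U251, the lines, and control siRNA against mock in LN229 and U251. Of 882 member values under alternatives, 856 kept their direction and side of the threshold or moved by less than the replicate spread. Another 17 moved by more, 5 were labelled weaker and 4 stronger. These labels do not count every lost or gained call. With XRN2 siRNA in LN229, SLC2A10 alone was not called in 9 of 19 alternatives. With 2 libraries per group and 8 to 39 reads behind the ARRDC4 values in LN229, small differences were not detectable.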
